A study of Mus musculus with 60 samples.

Results

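The genes described here encode liver enzymes that conjugate drugs and hormones or open epoxides. The list holds 9 genes: the UDP-glucuronosyltransferases Ugt2b1, Ugt2b5 and Ugt2a3, the cytosolic sulfotransferases Sult1a1 and Sult1d1, the methyltransferase Tpmt, the epoxide hydrolases Ephx1 and Ephx2, and the electron donor Por. Probes of the members were taken by gene symbol from the array's annotation, without use of their values. The gene list itself was chosen with earlier results of these data known. Of the 9 genes, 8 had a probe, 1 probe each, out of 14442 named genes and 21997 probes on the array, and Por had none. Enough values for the test were present for 6 of these 8 probes, while those of Ugt2b5 and Tpmt had too many missing values.

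Drug metabolism in the liver runs in phases: cytochrome P450 enzymes, fed with electrons by Por and cytochrome b5, oxidise a lipophilic compound, and transferases then attach a polar group that lets bile or urine carry it away. Glucuronosyltransferases sit in the endoplasmic reticulum and use UDP-glucuronic acid, sulfotransferases work in the cytosol with the sulfate donor PAPS, and Tpmt methylates thiopurine drugs. Epoxide hydrolases add water to reactive epoxides: Ephx1 is the microsomal enzyme that handles xenobiotic epoxides, and Ephx2 is the soluble enzyme best known for hydrolysing fatty acid epoxides.

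The study measured RNA of cultured primary hepatocytes on two-colour oligonucleotide arrays. KO hepatocytes came from Alb-Cre +/-; Met Fl/Fl mice of strain 129SV/C57BL6, in which Cre under the albumin promoter acts in hepatocytes on Met, the receptor of hepatocyte growth factor (HGF). WT hepatocytes came from Cre control mice of strain C57BL, whose genotype as Cre heterozygotes is stated for 6 of the 30 WT arrays. All mice were adult males of 9 to 10 weeks. In each genotype there were untreated cultures (0 h) and cultures given recombinant human HGF at 50 ng/ml for 0.5, 2, 12 or 24 h, with 3 replicates labelled as separate mice in each of the 10 groups. Strain changed together with genotype, so that the 2 cannot be told apart. All untreated arrays of the series were of 0 h, with no untreated cultures at the later times, so HGF and time in culture cannot be told apart either.

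Each replicate was read on 2 arrays of opposite dye against pooled WT hepatocyte RNA, and the deposited value is a normalized log ratio per probe and array. Every level below is the mean of the 2 arrays, on a log2 scale, of sample over pool, after centring each array on its median. That direction is likely rather than stated, on the basis that the sample is channel 2 on every array; were the pool on top, every sign below would turn. The Cy5 and the Cy3 arrays gave genotype differences averaged over time that correlated at a Pearson r of 0.444 over probes, which bears on their common direction but not on which RNA is on top. Over all 18 comparisons this r ranged from -0.449 (HGF at 2 h in KO) to 0.444. A ratio to a pool gives no absolute amount, so levels are compared within a gene and never between genes. In RNA of whole cultures, fewer expressing cells and less RNA per cell cannot be told apart. limma's moderated test was run over 14580 probes with each group weighted by its own spread, and called means a p under 0.05 after Benjamini-Hochberg adjustment over them.

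Arrays differed in quality. Values per array numbered 17356 to 21511, and the 2 arrays of a replicate correlated negatively over probes in 23 of 30 cases. The Cy5 array of WT 0 h replicate 3 ran against other arrays (r under -0.3 with 19 arrays of the same dye), so that its direction is unsettled. The residual SD of a probe in a group was 0.164 (WT 2 h) to 0.429 (KO 24 h). Array numbers formed 4 sets: all 12 h arrays lay in set C, all 0.5 h arrays in set D, all 2 h arrays but those of KO replicate 3 in set D, and the untreated and 24 h arrays in sets A, B and C. Set A held KO arrays only. In the other sets the KO and WT arrays of a time had separate runs of numbers, so at each time array number and genotype cannot be told apart. The probe for Met did not differ past the threshold in KO against WT (averaged log2 difference 0.08 ± 0.08 SE, limma adjusted p = 0.645). Its place relative to the deleted part of the gene is unknown here, so it does not check the genotype labels.

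Over the 5 times together, 3 of the 6 tested members were higher in KO than in WT hepatocytes: Ephx2, Ephx1 and Ugt2b1. None was lower. Of all tested probes, 4.6% were called higher in this comparison. The list was chosen with earlier results of these data known, so this share does not test the members as a set. The median difference was 0.35 on the log2 scale over the 6 members and -0.0044 over all probes. Ephx2 was called higher in KO at each HGF time, Ephx1 at 12 and 24 h, and Ugt2b1 at 0.5 and 2 h; these times were not tested against each other, other than each HGF time against untreated. Each dye alone called the averaged difference of Ephx2, while that of Ephx1 was not called on the Cy3 arrays alone (0.35, limma adjusted p = 0.144).

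At single times, limma called 2 of the 6 members higher in KO at each HGF time, against 8.7% of all probes at 0.5 h, 3.13% at 2 h, 1.98% at 12 h and 0.576% at 24 h. It called no member in untreated cultures, where 0.0137% of all probes were called higher. At an unadjusted p under 0.05, 2 members passed there, and the share of all probes at that cutoff is not given here. Replicates did not overlap, with KO higher, for 3 members at 0 h, 3 at 0.5 h, 4 at 2 h, 2 at 12 h and 2 at 24 h. The same held for 5.14%, 15.8%, 15.9%, 13.7% and 8.55% of all probes at these times. With KO lower, replicates did not overlap for 1 member, Sult1d1 at 24 h, against 7.1% of all probes at that time. No member was called lower in KO at any time.

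Ephx1 lies on chromosome 1, and its promoter is shown because this gene had the largest genotype difference among the called members. RefSeq (GRCm38.p6) gives these 300 bases, 250 before to 50 after the start, at chr1:181017520-181017819 on the minus strand, 5′ to 3′ along the gene:
Ephx1: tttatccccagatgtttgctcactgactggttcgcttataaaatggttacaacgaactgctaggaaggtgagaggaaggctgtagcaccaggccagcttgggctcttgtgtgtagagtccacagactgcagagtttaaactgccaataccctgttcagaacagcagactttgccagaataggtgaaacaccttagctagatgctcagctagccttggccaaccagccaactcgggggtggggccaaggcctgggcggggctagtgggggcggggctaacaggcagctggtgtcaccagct
The window was searched on both strands for GCGTG (the core of the aryl hydrocarbon receptor's element), TGACNNNGC (the core of NRF2's element), TGANTCA (AP-1), a nuclear receptor direct repeat and the HNF1 palindrome. None of these letters occurred in it, which says nothing of the factors. Among 32851 mouse promoters of this length, 32.4% held GCGTG, 12.4% TGACNNNGC, 7.81% TGANTCA, 0.0761% the direct repeat and 0.00913% the HNF1 palindrome.

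Ephx1 was not called between the genotypes before HGF or 0.5 h after it. Its untreated log2 ratios were 0.34, 0.21 and 0.33 in KO cultures, against 0.07, 0.69 and 0.30 in WT cultures. At 0.5 h they were 0.34, 0.27 and 0.38 in KO, against 0.01, 0.26 and 0.57 in WT. The replicates of the 2 genotypes overlapped at both times, and the differences were -0.06 ± 0.19 and 0.05 ± 0.13 (log2, SE, n = 3 each), neither called by limma (adjusted p = 1.0 and 0.824). The dye orientations disagreed in direction, with 0.34 on the Cy5 and -0.46 on the Cy3 arrays at 0 h, and 0.45 and -0.35 at 0.5 h.

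From 2 h on, the Ephx1 replicates of the genotypes no longer overlapped. At 2 h they were 0.20, 0.11 and -0.24 in KO, against -0.44, -0.35 and -0.31 in WT, a difference of 0.39 ± 0.12 that did not pass (limma adjusted p = 0.0677). It passed without KO 2 h replicate 3 (0.52, adjusted p = 0.00851), which leaves the arrays of set D alone, and without WT 0.5 h replicate 1 (adjusted p = 0.049) or replicate 3 (adjusted p = 0.0425). At 12 h the ratios were 0.69, 0.29 and 0.45 in KO, against -0.40, -0.53 and -0.29 in WT. At 24 h they were 0.63, 0.96 and 0.67 in KO, against -0.34, -0.40 and -0.86 in WT. All KO replicates were thus above the pool and all WT replicates below it at these late times.

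Ephx1 RNA was 1.85-fold higher in KO at 12 h (log2 difference 0.89 ± 0.16, limma adjusted p = 8.77e-04) and 2.44-fold higher at 24 h (1.28 ± 0.24, adjusted p = 0.00498). Both dye orientations gave the same direction, with 0.79 on the Cy5 arrays and 0.99 on the Cy3 arrays at 12 h, and 1.56 and 1.01 at 24 h. All 12 h arrays lay in 1 set. Without every replicate that has an array in set A or B, which leaves 1 WT replicate at 24 h and takes its spread from the full fit, the 24 h difference was 1.13 and was not called (adjusted p = 0.317). The 24 h call was also lost on the Cy3 arrays alone (adjusted p = 0.642) and when only these 2 groups entered the fit (adjusted p = 0.118). Without WT 24 h replicate 2 it sat at the threshold (adjusted p = 0.05).

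Ordered by mean level, the Ephx1 groups began with KO 24 h (0.75 ± 0.18 SD) and KO 12 h (0.48 ± 0.20), and ended with WT 2 h (-0.37 ± 0.06), WT 12 h (-0.41 ± 0.12) and WT 24 h (-0.53 ± 0.29). Between them lay the untreated and 0.5 h groups of both genotypes and KO 2 h. Of the 9 steps between neighbours in this order, 2 exceeded the larger SD of the pair: KO 24 h over KO 12 h, and KO 2 h over WT 2 h. Neighbours at the other steps did not differ beyond their spread.

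Ephx2, on chromosome 14, was higher in KO at all HGF times and kept a narrow range in KO cultures. Its untreated log2 ratios were 0.56, 0.31 and 0.31 in KO, against 0.05, 0.20 and 0.06 in WT. These replicates did not overlap, but the difference of 0.29 ± 0.13 was not called (limma adjusted p = 1.0) and came from the Cy5 arrays (0.61) and not the Cy3 arrays (-0.02). At 0.5 h the ratios were 0.58, 0.36 and 0.58 in KO, against 0.17, 0.10 and 0.18 in WT. At 2 h they were 0.43, 0.41 and 0.45 in KO, against -0.29, 0.01 and -0.11 in WT. Every KO replicate exceeded every WT replicate at both times.

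At the late times the genotypes were also apart. At 12 h the Ephx2 ratios were 0.29, 0.10 and 0.38 in KO, against -0.44, -0.41 and -0.29 in WT. At 24 h they were 0.23, 0.36 and 0.40 in KO, against -0.39, -0.29 and -0.52 in WT. The KO groups took the upper 5 places in the order of mean levels, from 0.51 ± 0.13 (SD) at 0.5 h to 0.26 ± 0.14 at 12 h, and the WT groups the lower 5, from 0.15 ± 0.04 at 0.5 h to -0.40 ± 0.11 at 24 h. Only 2 of the 9 steps in this order exceeded the larger SD of the pair, both of them within WT (0 h over 2 h, and 2 h over 12 h).

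Ephx2 RNA was higher in KO by 0.35 ± 0.09 at 0.5 h (limma adjusted p = 0.00684), 0.56 ± 0.08 at 2 h (3.02e-04), 0.64 ± 0.11 at 12 h (6.08e-04) and 0.73 ± 0.17 at 24 h (0.0233), which are folds of 1.28, 1.47, 1.56 and 1.66. The Cy5 and Cy3 arrays were nearly equal at 12 h (0.64 and 0.63) and at 24 h (0.67 and 0.79), but not at 2 h (0.10 and 1.01). The 2 h call was lost with Cy5 arrays alone, and the 0.5 h call with either dye alone and with 1 spread shared by all groups. At 24 h the call was lost on the Cy5 arrays alone (limma adjusted p = 0.583) and on the Cy3 arrays alone (0.621). It was also lost when only the groups compared entered the fit (0.254). The 24 h call was lost without KO 24 h replicate 1 (0.78, adjusted p = 0.0705) or 3 (0.70, 0.0732), without WT 24 h replicate 1 (0.74, 0.184) or 2 (0.79, 0.144), and without array sets A and B, which leaves 1 WT replicate (0.69, 0.563). Averaged over time the difference was 0.51 ± 0.05 (adjusted p = 3.33e-07), with 0.52 on the Cy5 and 0.51 on the Cy3 arrays.

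**Figure D1:**
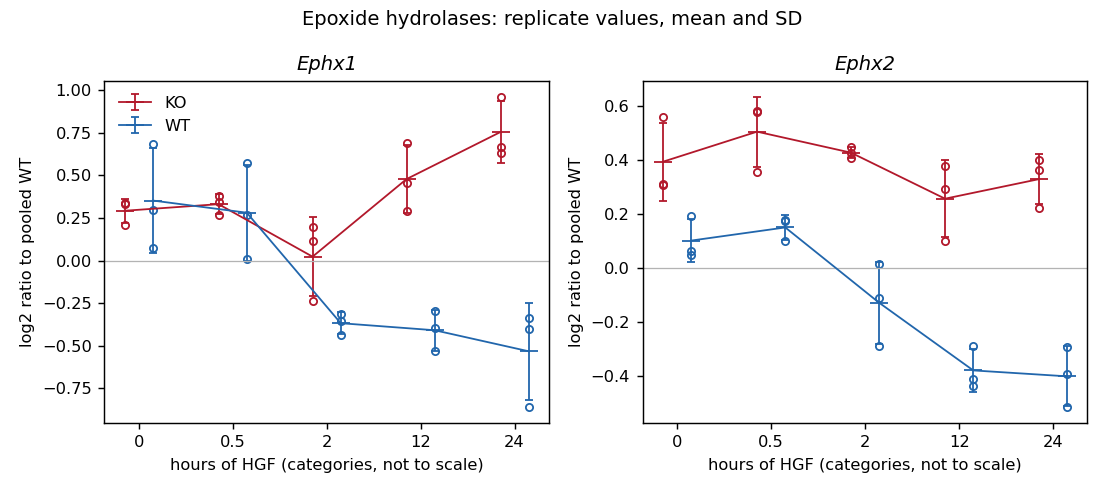
Log2 ratio to pooled WT RNA (y axis) of Ephx1 (left) and Ephx2 (right) at 0, 0.5, 2, 12 and 24 h of HGF (x axis, categories not to scale). Open circles are replicates (mean of 2 arrays, n = 3), dashes and bars the mean and SD, KO in red left of WT in blue; at 12 and 24 h all KO replicates lie above 0 and all WT replicates below 0 in both panels.

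Ugt2b1, Ugt2b5, Ugt2a3 and Sult1d1 all lie on chromosome 5, in that order within a run of glucuronosyltransferase and sulfotransferase genes that also holds Ugt2b35, Ugt2b36, Ugt2b37, Ugt2b38, Ugt2a1, Ugt2a2 and Sult1b1. The Ugt2b genes are close paralogs, and probe sequences were not used here, so a Ugt2b probe may read RNA of a neighbour. The promoters of Ugt2b1 and of Sult1a1 (chromosome 7) are shown because these 2 genes were the members called lower at late times in KO cultures. They are RefSeq sequences of GRCm38.p6, at chr5:86926454-86926753 and chr7:126676369-126676668, both on the minus strand and written 5′ to 3′ along the gene, with a match to TGANTCA in capitals:
Ugt2b1: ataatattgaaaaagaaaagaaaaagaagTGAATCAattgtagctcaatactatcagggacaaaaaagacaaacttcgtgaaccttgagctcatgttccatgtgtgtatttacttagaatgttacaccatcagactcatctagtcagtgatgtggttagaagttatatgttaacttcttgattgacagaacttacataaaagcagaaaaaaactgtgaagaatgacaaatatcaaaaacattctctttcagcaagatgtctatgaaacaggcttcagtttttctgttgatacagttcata
Sult1a1: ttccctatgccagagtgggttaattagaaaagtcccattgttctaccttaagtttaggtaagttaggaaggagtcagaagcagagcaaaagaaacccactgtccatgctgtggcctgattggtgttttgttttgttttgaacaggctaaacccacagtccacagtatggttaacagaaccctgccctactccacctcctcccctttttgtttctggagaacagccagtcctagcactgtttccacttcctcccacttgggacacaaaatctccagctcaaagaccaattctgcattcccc
The match in Ugt2b1 began at base -221 from the start, and Sult1a1 held none of the 5 motifs. Of the 7 members with a promoter in the table, 3 held any of them: Ugt2b1, Sult1d1 (GCGTG on the other strand at base -47) and Tpmt (4 matches to GCGTG between bases -108 and -60). These are matches of letters, and binding was not measured.

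Ugt2b1, a liver glucuronosyltransferase, was called higher in KO at 0.5 and 2 h and not at 0, 12 or 24 h. Its untreated log2 ratios were 0.38, 0.59 and 0.42 in KO, against -0.20, -0.28 and 0.22 in WT, a difference of 0.55 ± 0.25 that did not pass (limma adjusted p = 1.0). At 0.5 h they were 0.66, 0.26 and 0.02 in KO, against -0.14, -0.56 and -0.31 in WT. At 2 h they were 0.49, 0.62 and 0.73 in KO, against 0.08, 0.17 and -0.12 in WT. Replicates of the genotypes did not overlap at these 3 times.

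Late values of Ugt2b1 were low in both genotypes. At 12 h they were 0.16, -0.46 and -0.45 in KO, against -0.81, -1.01 and -0.41 in WT, and at 24 h they were -0.94, -0.64 and -0.23 in KO, against -1.05, -0.18 and -0.08 in WT. Replicates overlapped at both times, and neither difference was called (0.50 ± 0.21, limma adjusted p = 0.206, and -0.16 ± 0.32, adjusted p = 0.966). The called differences were 0.65 ± 0.17 at 0.5 h (1.57-fold, adjusted p = 0.0089) and 0.57 ± 0.16 at 2 h (1.48-fold, adjusted p = 0.0436).

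Both early calls of Ugt2b1 were fragile. At 0.5 h the difference was 0.26 on the Cy5 and 1.04 on the Cy3 arrays, and the call was lost without KO 0.5 h replicate 1 (0.48, limma adjusted p = 0.0709), without WT 0.5 h replicate 2 (0.54, adjusted p = 0.0693) and with 1 shared spread (adjusted p = 0.106). At 2 h the dyes differed less (0.63 and 0.50), but the call was lost without any 1 of the 6 replicates of the 2 groups, and without KO 0 h replicate 3, KO 0.5 h replicate 2, KO 12 h replicate 2, KO 24 h replicate 2 or WT 24 h replicate 3. Over these leave-outs the 2 h difference ranged from 0.48 to 0.63 and the adjusted p reached 0.2. Averaged over the 5 times the difference of 0.42 ± 0.10 (adjusted p = 0.00748) stayed past the threshold without any 1 replicate, and was lost on the Cy5 arrays alone (0.34).

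Ugt2a3, another glucuronosyltransferase, was not called between the genotypes at any time. Its group means lay between -0.34 and 0.16 in KO and between -0.87 and 0.41 in WT. The lowest value belonged to WT 24 h, where replicates 1, 2 and 3 were at -0.28, -0.44 and -1.90, against -0.47, -0.13 and -0.44 in KO. In WT 24 h replicate 3 the Cy5 array read -2.99 and the Cy3 array -0.81. Averaged over time the difference was 0.12 ± 0.10 (limma adjusted p = 0.521, 95% interval -0.08 to 0.32).

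Sult1a1, a sulfotransferase for phenols, was not called between the genotypes at any time. Untreated log2 ratios were 0.37, 0.27 and 0.60 in KO, against -0.09, 0.04 and 0.48 in WT. At 2 h they were 0.55, 0.24 and 0.19 in KO, against -0.10, 0.02 and 0.12 in WT, the only time at which the replicates did not overlap. The difference there, 0.31 ± 0.12, was not called (limma adjusted p = 0.149). Averaged over time it was 0.18 ± 0.08 (adjusted p = 0.143, 95% interval 0.03 to 0.34). It passed without WT 24 h replicate 3 (0.23, adjusted p = 0.0332) and with array set as a term (0.23, adjusted p = 0.00285).

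Sult1d1, a sulfotransferase that acts on catecholamines in mice, was the noisiest member. Its untreated log2 ratios were -0.48, -0.14 and -0.41 in KO, against -0.87, -0.50 and -0.68 in WT, and at 0.5 h they were 0.07, -0.25 and -0.12 in KO, against -0.89, -0.88 and -0.52 in WT. At 12 h, KO replicate 2 read -0.40 on its Cy5 array and 3.91 on its Cy3 array, and WT replicate 3 read 0.70 and -5.60. KO 12 h replicate 1 had a value on 1 array and was left out of that mean. With all other values in place the 12 h difference was 1.12 ± 0.61 (limma adjusted p = 0.373). It was -0.92 on the Cy5 arrays alone, where it was called, so that its direction is not settled. Without the replicates whose 2 arrays stood more than 3 apart, a choice made after seeing the data, KO 12 h keeps replicate 3 alone and the difference was -0.95. The 0.5 h difference of 0.66 was not called (adjusted p = 0.316), but passed without those replicates (adjusted p = 0.00735) and when only the 2 groups entered the fit (adjusted p = 0.0149). At 24 h the difference was -0.69 ± 0.83 (adjusted p = 0.929).

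Ugt2b5 and Tpmt could not enter the test. Ugt2b5 had both arrays in 22 of 30 replicates, with no complete replicate in WT 0.5 h, 1 in WT 0 h and 1 in KO 0.5 h. At 2 h its log2 ratios were 0.73, 0.60 and 0.78 in KO, against -0.18, -0.33 and 0.13 in WT, and at 24 h they were -0.17, -0.43 and 0.13 in KO, against 1.60, 0.38 and -0.29 in WT. Replicates were apart at 2 h and overlapped at 24 h. Tpmt had 27 complete replicates. Its ratios at 24 h were 0.79, 0.69 and 0.44 in KO, against 0.73 in the 1 complete WT replicate, and at 2 h they were -0.12, -0.28 and -0.47 in KO, against -0.34, -0.42 and -0.13 in WT. The 2 h and 24 h replicates of KO did not overlap each other. These 2 times were not compared in a test, and the share of all probes without overlap between them is not given here. When 1 array per replicate was enough (20039 probes tested), limma called neither gene in any of the 18 comparisons, the smallest adjusted p being 0.0579 for Tpmt in KO against WT at 0.5 h.

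**Figure D2:**
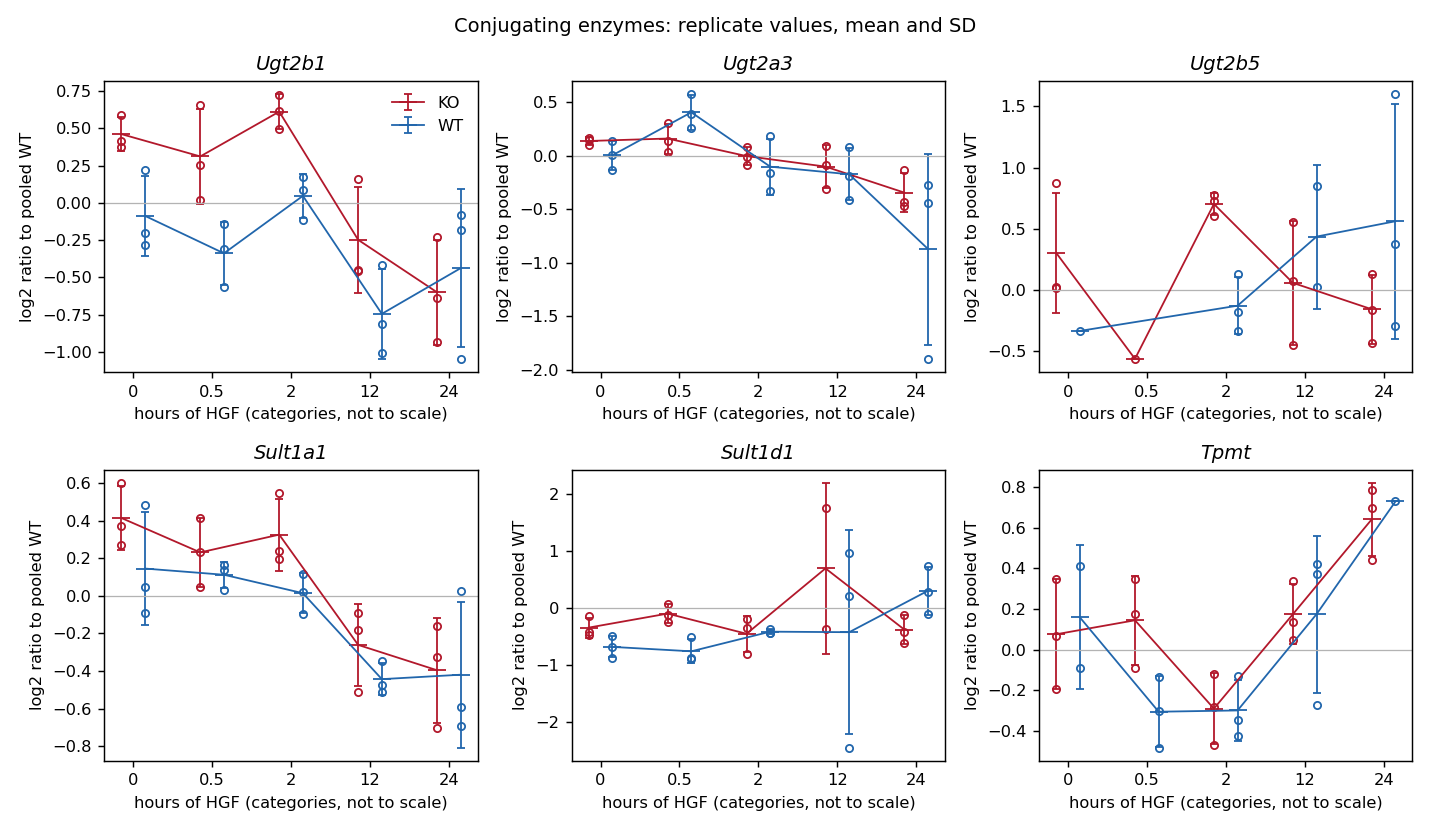
Log2 ratio to pooled WT RNA (y axis, a scale of its own in each panel) of 6 conjugating enzymes at 0, 0.5, 2, 12 and 24 h of HGF (x axis, categories not to scale). Open circles are replicates with both arrays, dashes and bars the mean and SD, KO in red left of WT in blue; a group with 1 replicate has no bar and WT 0.5 h of Ugt2b5 has none. The means of Ugt2b1 and Sult1a1 are lower at 12 and 24 h than at earlier times in both genotypes, and Sult1d1 has wide bars at 12 h.

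**Figure D3:**
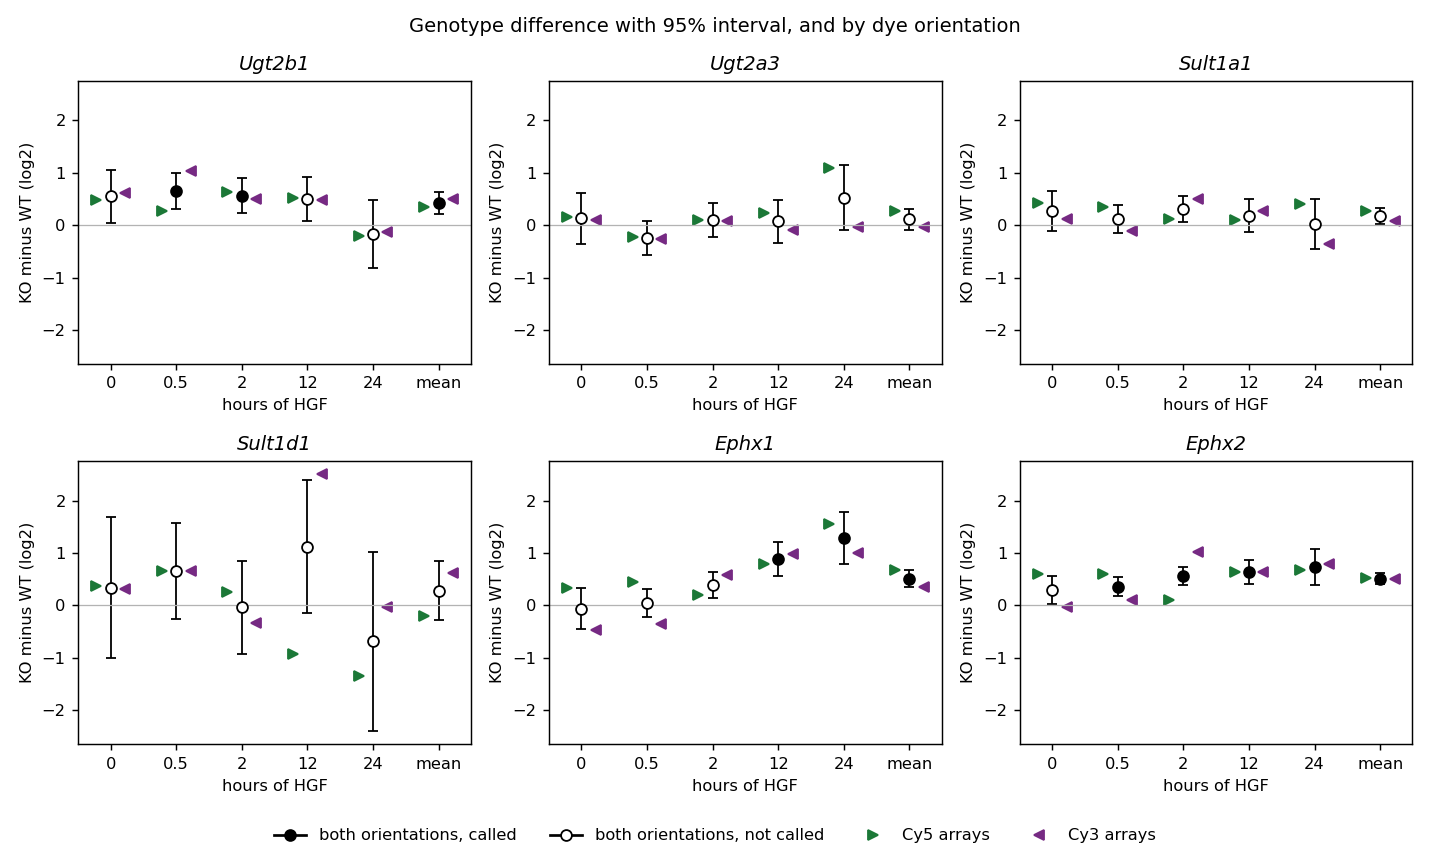
KO minus WT log2 difference (y axis) of the 6 tested members at each time and averaged over the 5 times ("mean"). Circles with bars are the fitted difference and its 95% interval, filled where called; green triangles to the left are the Cy5 arrays alone and purple triangles to the right the Cy3 arrays alone. All filled circles belong to Ugt2b1, Ephx1 and Ephx2 and lie above 0.

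With HGF and time in culture, Sult1a1 and Ugt2b1 were called lower in KO cultures, and Ephx1 and Ephx2 in WT cultures. No difference of these responses between the genotypes was called. limma called no member at 0.5 or 2 h in either genotype. Of all probes it called 0.0274% at 0.5 h and 0.199% at 2 h in KO, and 0.048% and 0.233% at these times in WT. At an unadjusted p under 0.05, none of the 6 passed in KO at these times, and 1 passed in WT (Ephx1 at 2 h). The share of all probes at that cutoff is not given here. No member rose past the threshold at any time. The median change of the 6 members was -0.19 at 12 h and -0.27 at 24 h in KO, against -0.54 and -0.53 in WT, while the median over all probes lay between -0.03 and 0.02 in these 4 comparisons.

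Sult1a1 in KO cultures fell by 0.68 ± 0.16 on the log2 scale at 12 h of HGF (limma adjusted p = 0.0393) and by 0.81 ± 0.19 at 24 h (adjusted p = 0.0176). Its 12 h ratios were -0.09, -0.51 and -0.18 and its 24 h ratios -0.70, -0.33 and -0.16, all below the untreated replicates given above. In KO, 1 of 6 members was called lower at 12 h and 2 at 24 h, against 0.706% and 2.37% of all probes. Replicates lay wholly below the untreated ones for 3 of 6 members at each of these times, against 8.63% and 9.97% of all probes. The 12 h call was lost without any of the 3 untreated KO replicates (adjusted p = 0.0627 to 0.0927), without KO 12 h replicate 1 (0.107) or 3 (0.147), and without array sets A and B (-0.58, adjusted p = 0.0902). The 24 h call was lost without KO 24 h replicate 1 (-0.66, adjusted p = 0.286). Both were lost on either dye alone, although each dye gave the same direction.

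Sult1a1 in WT cultures had 12 h ratios of -0.47, -0.51 and -0.35 and 24 h ratios of -0.69, -0.59 and 0.02. The 12 h replicates lay below all untreated WT replicates, while the 24 h ones overlapped them. Neither change was called in WT (-0.59 ± 0.18, limma adjusted p = 0.0673, and -0.56 ± 0.23, adjusted p = 0.313), but the 24 h change passed without WT 24 h replicate 3 (-0.79, adjusted p = 0.0227). The difference between the 2 responses of Sult1a1 was -0.09 ± 0.24 at 12 h and -0.25 ± 0.30 at 24 h, with 95% intervals from -0.58 to 0.41 and from -0.86 to 0.37, so a difference between genotypes was not shown.

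Ugt2b1 in KO cultures fell by 1.06 ± 0.25 at 24 h, a fold of 2.09 (limma adjusted p = 0.0207), and its change of -0.71 ± 0.21 at 12 h did not pass (adjusted p = 0.114). All KO replicates at 12 and 24 h lay below all untreated ones. The 24 h call was lost without KO 0 h replicate 2 (adjusted p = 0.1) or KO 24 h replicate 1 (-0.89, adjusted p = 0.278). It was also lost on the Cy5 arrays alone (limma adjusted p = 0.467), on the Cy3 arrays alone (0.278) and when only the groups compared entered the fit (0.188). Each dye gave the same direction. In WT cultures Ugt2b1 changed by -0.66 ± 0.25 at 12 h and -0.35 ± 0.31 at 24 h, neither called (adjusted p = 0.138 and 0.858). The responses differed by -0.05 ± 0.32 at 12 h (95% interval -0.72 to 0.61) and by -0.71 ± 0.40 at 24 h (-1.54 to 0.12). Neither was called (limma adjusted p = 0.853 at 24 h), so a difference between genotypes was not shown.

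Ephx1 fell in WT cultures at 12 and 24 h and was not called in KO cultures. At 2 h its change in KO was -0.27 ± 0.14 (limma adjusted p = 0.418), with all replicates below the untreated ones. Later its change in KO was 0.19 ± 0.16 at 12 h and 0.46 ± 0.19 at 24 h (adjusted p = 0.797 and 0.237), and all 24 h replicates lay above all untreated ones. In WT cultures it fell by 0.76 ± 0.19 at 12 h (adjusted p = 0.0194) and by 0.88 ± 0.24 at 24 h (adjusted p = 0.0465). Its change at 2 h in WT, -0.72 ± 0.18, did not pass (adjusted p = 0.0879), but passed without WT 0 h replicate 3, the replicate with the unsettled Cy5 array (-0.75, adjusted p = 0.0153). All WT replicates from 2 h on lay below the untreated ones. In WT, 2 of 6 members were called lower at 12 h and 1 at 24 h, against 2.3% and 1.36% of all probes. Replicates lay wholly below the untreated ones for 4 members at 12 h and 3 at 24 h, against 11.2% and 9.6% of all probes.

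The Ephx1 falls in WT also depended on single replicates. At 12 h the call was lost without WT 0 h replicate 1 (-0.90, limma adjusted p = 0.0528) or 2 (-0.59, 0.191) and without WT 12 h replicate 1 (-0.77, 0.0607) or 2 (-0.70, 0.07) and without array sets A and B (-0.79, 0.0596), and the change was -0.21 on the Cy5 and -1.31 on the Cy3 arrays. At 24 h the call was kept only without KO 2 h replicate 1, 2 or 3, KO 12 h replicate 1, KO 24 h replicate 1, WT 0 h replicate 3, WT 0.5 h replicate 1 or 3, or WT 24 h replicate 3. Without any 1 of the other replicates it was lost, with a change between -1.02 and -0.72 over all leave-outs and an adjusted p of up to 0.264. It was also lost without array sets A and B, with 1 WT replicate left at 24 h (-0.72, adjusted p = 0.664).

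The test of the difference itself, KO response minus WT response, gave 0.95 ± 0.24 for Ephx1 at 12 h and 1.35 ± 0.30 at 24 h (95% intervals 0.45 to 1.45 and 0.72 to 1.97). The fit that weights groups by their spread did not call them (limma adjusted p = 0.18 and 0.0848). With equal weights the 24 h difference passed (adjusted p = 0.00352). It also passed without WT 0.5 h replicate 3 (adjusted p = 0.046). Both dyes gave its direction at 24 h (1.22 on the Cy5 and 1.47 on the Cy3 arrays), and without array sets A and B, which leaves 1 WT replicate at 24 h, it was 1.24 (adjusted p = 0.769). limma called no member in any of the 4 differences of responses, against 0%, 0.0617%, 0.0892% and 0.144% of all probes at 0.5, 2, 12 and 24 h. At an unadjusted p under 0.05, 3 of these 24 tests of members passed: Ephx1 at 12 and 24 h and Ephx2 at 24 h. These tests share their untreated replicates, and the share of all probes at that cutoff is not given here.

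Ephx2 in WT cultures fell by 0.48 ± 0.13 at 12 h (limma adjusted p = 0.0327), with -0.18 on the Cy5 and -0.79 on the Cy3 arrays. Its change of -0.50 ± 0.16 at 24 h was not called (adjusted p = 0.135), although all WT replicates at 2, 12 and 24 h lay below the untreated ones. The 12 h call was lost without WT 0 h replicate 1 (-0.51, adjusted p = 0.143) or 2 (-0.43, 0.184) and without WT 12 h replicate 1 (-0.45, 0.105) or 2 (-0.46, 0.0875), and without array sets A and B (-0.50, 0.134). In KO cultures its changes were -0.14 ± 0.11 at 12 h and -0.06 ± 0.13 at 24 h, with replicates that overlapped the untreated ones. The responses differed by 0.34 ± 0.17 and 0.44 ± 0.21 at these times (adjusted p = 0.836 and 0.793).

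Ugt2a3 and Sult1d1 were not called with HGF in either genotype. Ugt2a3 changed by -0.48 ± 0.24 at 24 h in KO and by -0.88 ± 0.30 in WT (limma adjusted p = 0.381 and 0.16), and in both the 24 h replicates lay below all untreated ones. The WT change was -1.35 on the Cy5 and -0.41 on the Cy3 arrays and ranged from -1.18 to -0.36 when 1 replicate was left out. Sult1d1 changed by -0.04 ± 0.66 at 24 h in KO, against 0.99 ± 0.82 in WT, where its ratios were 0.74, 0.27 and -0.10 and all lay above the untreated ones (adjusted p = 0.996 and 0.832). Its KO replicates at that time, at -0.61, -0.12 and -0.42, overlapped the untreated ones. Without the replicates whose arrays stood more than 3 apart, which leaves 2 WT replicates at 12 h, Sult1d1 passed in WT at 12 h (1.27, adjusted p = 0.00464), against 0.26 ± 0.65 with them (adjusted p = 0.908).

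**Figure D4:**
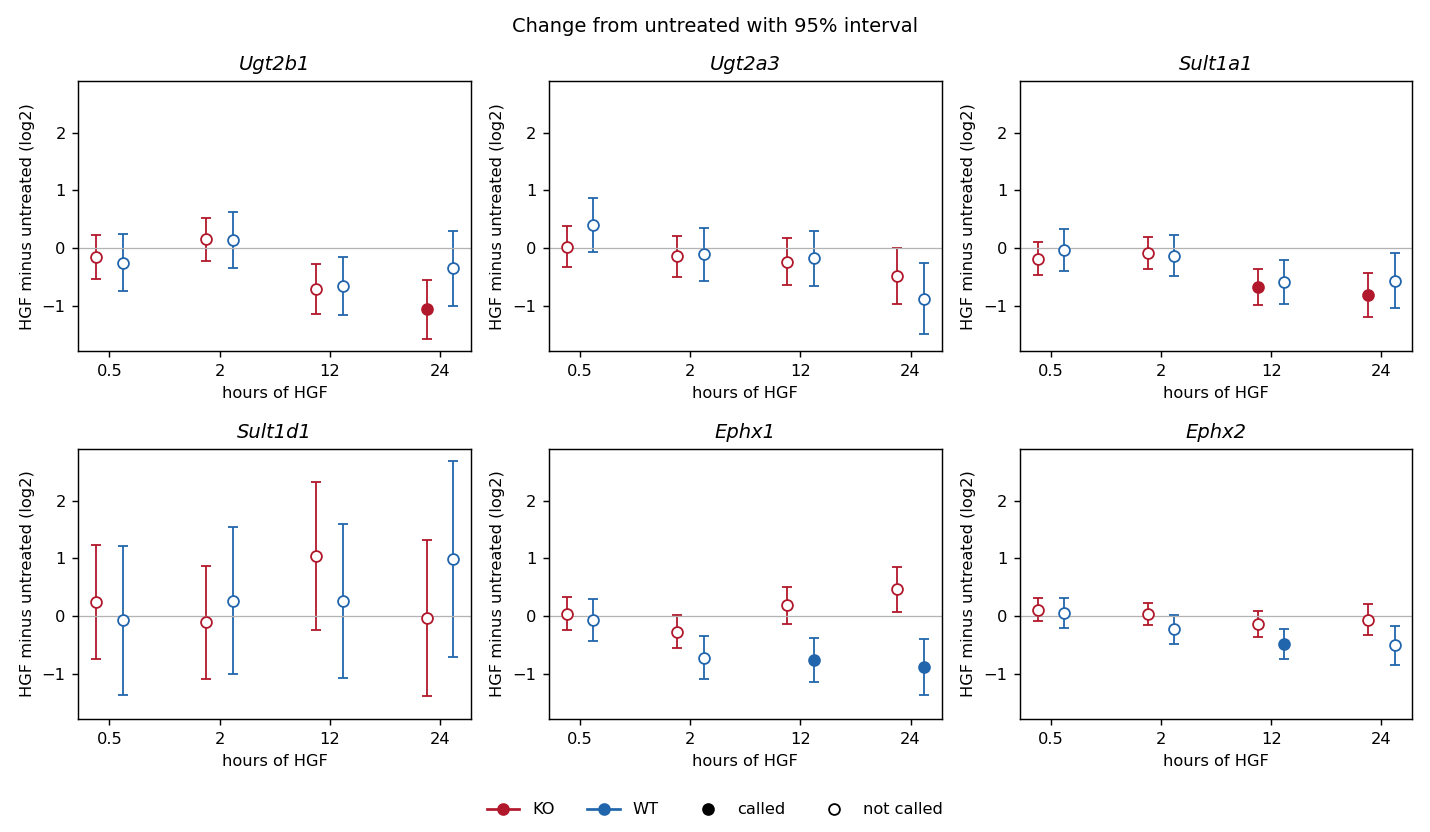
Log2 change from untreated (y axis) of the 6 tested members at 0.5, 2, 12 and 24 h of HGF (x axis), KO in red left of WT in blue, with 95% intervals and filled circles where called. The filled circles are Ugt2b1 and Sult1a1 in KO and Ephx1 and Ephx2 in WT, all below 0; Ephx1 lies above 0 in KO at 12 and 24 h.

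Across replicates, the levels of Ephx1 and Ephx2 went together (Pearson r = 0.76, n = 30), as did those of Ugt2b1 and Sult1a1 (r = 0.814, n = 30), while Ephx1 and Ugt2b1 did not (r = 0.0648). Tpmt ran against Ugt2b1, Ugt2a3 and Sult1a1 (r of -0.54, -0.60 and -0.56, n = 27). The genes whose profiles were most like a member's, by Pearson r over 28 to 30 replicates, were Abca8b (0.871) and Cnpy2 (0.866) for Ephx1, and Hgd (0.907) and Ly6d (0.899) for Ephx2. For Ugt2b1 they were Ang2 (0.876) and Otc (0.863), for Sult1a1 Hrg (0.913) and Pithd1 (0.912), for Ugt2a3 Pgrmc1 (0.894) and Slc35f5 (0.893), and for Sult1d1 Prdm1 (0.802) and Arl4aos (0.697). Values of 1 replicate share their arrays, so these correlations describe the profiles only.

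Other genes of drug conjugation and hydrolysis were read from fixed lists, averaged over the 5 times, where 4.6% of all probes were called higher in KO and 5.05% lower. Among glucuronidation genes, 2 of 4 tested probes were higher in KO and none lower: Ugt1a6a, a phenol glucuronosyltransferase whose family shares exons (0.26 ± 0.08, limma adjusted p = 0.0465), and Ugt2b37 (0.21 ± 0.06, 0.0251). Among sulfonation genes, 3 of 12 were higher and 1 lower. The lower one was Sult1e1, the oestrogen sulfotransferase (-1.19 ± 0.20, adjusted p = 1.79e-04), which was 4.7-fold lower in KO at 12 h. Papss2, which makes the sulfate donor PAPS, was higher by 0.32 ± 0.07 (0.00409), and the sulfotransferase Sult1c1 by 0.21 ± 0.06 (0.0272). The list medians were 0.16 and 0.01, against -0.0044 over all probes.

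Of the transferases for methyl, acetyl and acyl groups, 5 of 12 tested probes were higher in KO and none lower (median 0.21). Glyat, which joins glycine to acyl groups, was higher by 0.90 ± 0.11 (limma adjusted p = 6.91e-06), Baat, which conjugates bile acids, by 0.52 ± 0.10 (6.12e-04), and Mat1a, which makes the methyl donor S-adenosylmethionine, by 0.33 ± 0.06 (0.00108). Among drug and lipid hydrolases, 2 of 8 were higher and none lower (median 0.11): Cmbl, a prodrug hydrolase in humans (0.92 ± 0.08, 1.77e-08, called at 4 of 5 times), and the carboxylesterase Ces2g (0.50 ± 0.07, 1.90e-05, called at 3 of 5 times). Both were higher in KO at 12 and 24 h, as Ephx1 and Ephx2 were.

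Por itself had no probe, but 2 of 8 tested probes of other electron donors and redox partners were higher in KO and none lower (median 0.10). Cytochrome b5 (Cyb5a), which passes electrons to P450 enzymes, was higher by 0.70 ± 0.09 (limma adjusted p = 4.48e-06), and Cyb5r3, its reductase, by 0.29 ± 0.08 (0.0131). Among xenobiotic receptors and regulators, 3 of 9 were higher and 1 lower (median 0.17). Nfe2l2, which encodes NRF2, was higher by 0.45 ± 0.08 (2.09e-04) and was called at 2, 12 and 24 h. Ncoa1, a nuclear receptor coactivator, was higher by 0.23 ± 0.06 (0.0225), while Tiparp, a repressor of the aryl hydrocarbon receptor, was lower (-0.39 ± 0.10, 0.0109).

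Markers of cell types moved with genotype in part. Averaged over time, 4.6% of all probes were called higher in KO and 5.05% lower. Of 9 hepatocyte markers tested, 2 were higher in KO averaged over time and none lower, Ass1 by 0.54 ± 0.07 (limma adjusted p = 5.69e-06) and Cps1 by 0.49 ± 0.11 (0.00294), and the mean of the list at each time ranged from -0.75 to -0.0017 in KO and from -0.94 to -0.12 in WT. Of 4 endothelial markers, 2 were lower in KO (Clec4g -0.32, Dnase1l3 -0.48), with list means of -0.45 to -0.13 in KO and -0.24 to 0.09 in WT. Of 5 Kupffer cell markers, 1 was higher (Mpeg1 0.36), with list means of -0.24 to -0.0040 in KO and -0.52 to 0.08 in WT. Of 5 bile duct markers, 1 was lower (Cftr -0.39), and of 2 red blood cell markers, 1 was higher (Alas2 0.27). None of 4 stellate cell or 3 lymphocyte markers was called in this average. At 0.5 h, 1 stellate marker was higher and 1 lower, and 1 lymphocyte marker was higher. At that time 2 hepatocyte markers were higher and 1 lower (Apoa1 -0.72, limma adjusted p = 0.0263). Lower then were also 2 endothelial markers, 1 bile duct marker and 1 red blood cell marker. Of all probes, 8.7% were called higher and 11.1% lower at 0.5 h. Hepatocyte markers were also lower late in culture: 4 of 9 fell in KO and 3 of 9 in WT at 24 h, against 2.37% and 1.36% of all probes, with list medians of -0.89 and -0.66. A ratio to a pool cannot show that a marker was absent, and the part of these shifts in the members' changes was not tested.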

How the data were processed

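The deposited values are normalized log2 ratios by the authors, 1 per probe and array, for 60 arrays (30 replicates, each with 2 dye orientations). No source names the log base, and base 2 was taken from the spread of the values, none beyond 11.6 in size. The normalization method and numerator are not given in the sources used here. The labels' protocols give 50 ng/ml HGF, while the treatment field gives nM, and that field gives 0.5 h for the 12 h samples, for which the titles were used. The number of arrays limits the precision.

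After subtraction of each array's median, both orientations of a replicate were averaged. Probes with both orientations in at least 2 of 3 replicates of all 10 groups were tested (14580, 66.3%). limma 3.58.1 (R 4.3.3, statmod 1.5.0) estimated the 10 group means from all 30 replicates together, weighted per group (arrayWeights), 20 residual and 5.21 prior degrees of freedom, two-sided tests and Benjamini-Hochberg adjustment over all tested probes, called under 0.05. Group weights were used because, on data simulated with the groups' own spreads, equal weights gave more false calls for KO against WT at 24 h. A replicate with arrays in 2 sets (WT 24 h replicate 2) counted as part of each. The comparisons were KO against WT (per time and averaged), HGF against untreated within a genotype, and KO response minus WT response. Symbols were read from the platform annotation for probes with 1 symbol (16076), of which 15877 matched current names by Entrez ID. Named pathway genes are up to 3 called with the smallest p per list in the averaged comparison and any called at 3 or more of 5 times. The members and lists were chosen with earlier results of these data known. Alternatives were no centring, scale normalization, probe filters, single dyes, turned signs, removal of 3 dye profiles, the groups compared alone, a replicate block, array sets, each replicate left out, and a further pair. The last 2, leaving out WT 0 h replicate 3 with KO 24 h replicate 2 and leaving out replicates whose orientations stood over 3 apart, were added after seeing the data.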

Additional observations from a re-analysis of the deposited data

How the results depend on the processing

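All 17 calls of members had the same direction on the Cy5 and the Cy3 arrays. Calls were made on the mean of both dyes, which favours a shared direction, so this is no independent check. With the sign of all Cy3 arrays turned, the fit reads the Cy5 value minus the Cy3 value, divided by 2. Differences with a shared direction must then shrink or reverse, so losses there do not measure how firm a call was. Of the 17, 5 were also called on the Cy5 arrays alone, 8 on the Cy3 arrays alone and 3 on both. There were 8 calls in KO against WT at the 5 times: the count was 5 with 1 spread shared by all groups, 4 with Cy5 arrays only, 5 with Cy3 arrays only and 1 with the sign of all Cy3 arrays turned, and 7 to 9 without any 1 replicate. The 3 calls for HGF in KO became 0 with Cy5 arrays only, Cy3 arrays only, Cy3 signs turned or only the groups compared, 5 with array set as a term, and 1 to 3 without any 1 replicate. The 3 calls for HGF in WT became 0 with Cy5 arrays only, Cy3 signs turned, only the groups compared and without array sets A and B, 8 with 1 shared spread, 5 with 3 dye profiles removed, 7 with array set as a term, and 0 to 4 without any 1 replicate. The difference of responses had 0 calls in limma and 3 at an unadjusted p under 0.05, a cutoff whose share of all probes is not given here. Its calls numbered 1 with 1 shared spread, without centring or without orientations over 3 apart. They numbered 2 with 3 dye profiles removed or array set as a term, and 0 to 1 without any 1 replicate. The 3 averaged calls became 0 with Cy3 signs turned; Ugt2b1 lost its call on Cy5 arrays only and Ephx1 on Cy3 arrays only, and the count was 3 to 4 without any 1 replicate.

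Replicate numbers did not pair the samples: the closest other replicate had the same number for 10 of 30, and same-number pairs had a median r of -0.0175. With the replicate block as fixed terms, HGF in WT had 5 calls and the difference of responses 1. With a random replicate block (correlation -0.0213) the counts were 8, 3, 2, 0 and 3 in the order above.

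Turning the sign of all Cy3 arrays reversed Ugt2b1 in KO against WT at 0.5 h (-0.39) and averaged (-0.0812) and at 24 h of HGF in KO (0.0531), and Sult1a1 in KO at 12 h (0.10) and 24 h (0.0798). It reversed Ephx1 in KO against WT at 12 h (-0.10) and in WT at 12 h (0.55) and 24 h (0.21), and Ephx2 in KO against WT at 2 h (-0.46) and 24 h (-0.0621) and in WT at 12 h (0.30). These reversals show only that the Cy3 difference was larger in size than the Cy5 difference. Sult1d1 in KO against WT at 12 h was -0.92 on Cy5 arrays only, and the cause of that reversal was not tested. Among single results, 4955 stayed on the same side of the threshold, most of them called in neither fit. A change of sign without a call in either fit counts among these. A further 113 lost a call, 44 gained one, and 12 changed sign with a call in either fit. These counts include the fit with Cy3 signs turned, where calls shrink or reverse by arithmetic. Without WT 0 h replicate 3 and KO 24 h replicate 2 the counts were 6, 3, 3, 0 and 3. The fixed block gave no value for KO against WT, nor the groups compared alone for the averaged difference. Precision is limited by 3 replicates a group.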

Other observations

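The values below concern genes that were chosen after their values were seen. With HGF and time in culture, several conjugating and hydrolysing enzymes outside the member list fell in both genotypes. Of 8 tested hydrolase probes, 2 fell in KO and 4 in WT at 24 h, with none higher in either, against 2.37% and 1.36% of all probes called lower. Ces3a, a carboxylesterase, fell by 1.56 ± 0.27 in KO and by 1.35 ± 0.34 in WT at 24 h (log2, SE, limma adjusted p = 0.00221 and 0.0322). Pon1, the paraoxonase that liver cells secrete, fell by 1.02 ± 0.24 in KO and by 1.38 ± 0.30 in WT (adjusted p = 0.0228 and 0.0125). Acsm1, a medium-chain acyl-CoA synthetase that activates acids for glycine conjugation, fell by 1.48 ± 0.32 in KO and by 1.71 ± 0.40 in WT (adjusted p = 0.0121 and 0.0183).

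Ugt1a6a fell by 1.18 ± 0.26 at 24 h in WT (limma adjusted p = 0.011), while its change in KO was -0.32 ± 0.20 (adjusted p = 0.601). The responses differed by 0.86 ± 0.33, which was not called (adjusted p = 0.667). Sult1e1 rose by 2.01 ± 0.48 in WT at 12 h (adjusted p = 0.0165). Its change in KO at 12 h was not called, and neither was the difference of its responses at that time, so a difference between genotypes in this response was not shown. Nqo2, a quinone reductase, rose at 24 h by 0.72 ± 0.17 in KO and 0.83 ± 0.22 in WT (adjusted p = 0.0246 and 0.0432).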
